A study of Mus musculus with 200 samples.

Results

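The proneural and neuronal bHLH factors are 9 genes of the 22033 in the deposited tables, chosen by symbol: the neurogenins *Neurog1* and *Neurog2*, *Atoh1*, the NeuroD genes *Neurod1*, *Neurod2* and *Neurod4*, *Nhlh1*, *Nhlh2* and *Bhlhe22*. All 9 were found in the tables of reads and of allele votes. Single whole embryos at E11.5 were profiled by 3SEQ, which sequences the 3′ ends of mRNAs, in crosses of the inbred strains C57BL/6J (B6) and CAST/EiJ (Cast). The 16 F1 embryos came from B6 mothers and Cast fathers (B6 × Cast, 8 embryos of 2 litters) or from Cast mothers and B6 fathers (Cast × B6, 8 embryos of 2 litters). The 154 genotyped N2 embryos came from B6 mothers and F1 fathers (89 embryos of 17 litters) or from F1 mothers and B6 fathers (65 embryos of 12 litters), so that at any autosomal gene an N2 embryo is homozygous for B6 or heterozygous for B6 and Cast. The somite number, which counts the body segments formed and gives the stage of an embryo, ranged from 41 to 63 in the F1 embryos and from 42 to 57 in the 147 N2 embryos for which the labels give it. By the labels, both B6 × Cast litters and the younger Cast × B6 litter were sequenced in the runs gaIIx and hs1, and the older Cast × B6 litter in hs1 and hs2. The labels name no deletion or treatment. Embryos of 1 litter share a mother, so p-values over embryos measure the spread between embryos and not between mothers.

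Basic helix-loop-helix (bHLH) factors bind E-boxes, short DNA motifs, mostly as dimers with the widely expressed E proteins. Proneural members such as the neurogenins and Atoh1 act in dividing progenitors, where they start neurogenesis and activate Notch ligands, while Hes and Id proteins restrain them. NeuroD and Nhlh factors follow in newly formed neurons, and Bhlhe22 is a repressor in particular classes of neurons. In a whole embryo these cells are a small part of the RNA, and in such bulk samples fewer cells of a type and less RNA per cell cannot be told apart.

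The stretch of 250 bases before the annotated start is shown for *Neurod2*, the 1 member called higher with stage in both generations, and for *Nhlh2*, the member whose alleles differed. The sequences are those of RefSeq on GRCm38.p6, at chr11:98329646-98329895 on the minus strand and chr3:102009895-102010144 on the plus strand. Capitals mark the E-box CANNTG, which reads the same on both strands.
Neurod2: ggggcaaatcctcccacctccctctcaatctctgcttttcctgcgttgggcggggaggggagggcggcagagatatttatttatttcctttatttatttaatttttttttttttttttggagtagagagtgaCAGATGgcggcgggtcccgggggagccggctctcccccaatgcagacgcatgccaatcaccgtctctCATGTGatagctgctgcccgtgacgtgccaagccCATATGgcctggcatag
Nhlh2: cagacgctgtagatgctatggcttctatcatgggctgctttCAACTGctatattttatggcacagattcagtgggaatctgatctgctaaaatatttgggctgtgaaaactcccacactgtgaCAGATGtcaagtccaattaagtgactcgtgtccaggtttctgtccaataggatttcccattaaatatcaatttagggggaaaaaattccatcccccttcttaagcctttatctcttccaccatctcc
The window of *Neurod2* held 3 E-boxes, among them 1 CATATG, a form found in 3.46% of all 32851 promoter windows of this length. That of *Nhlh2* held 2. An E-box of any form was in 66.2% of all windows, with a median of 1 per window. Among the other members, 1 was found for *Nhlh1* and 1, a CATATG, for *Neurod1*, and 0 for *Neurog1*, *Neurog2*, *Atoh1* and both starts of *Neurod4*. These matches describe the letters of the windows, and binding was not measured.

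Each F1 embryo had 15703888 to 38234229 reads on genes, each N2 embryo 245220 to 5370322, and levels are given as reads per 1000000 reads on genes (RPM). At the median N2 depth, 5 RPM was 11.5 reads, so a single N2 embryo gives the lower members with little precision. Of the members, 6 reached a mean of 5 RPM over the N2 embryos and 8 reached 1 RPM. The exception was *Atoh1*, listed at 0 reads in 91 of 154 N2 embryos. One set of sequencing lanes stood apart. The N2 embryos were sequenced in 14 lanes, A to N, and in lanes J to N the median RPM was at least 4-fold higher than in lanes A to I for 2177 of 10007 genes (21.8%) and at least 4-fold lower for 13 (0.13%). This split was made after the values were seen. Each lane held few litters and mostly 1 kind of mother, and some litters were split over both sets of lanes. Values across lanes therefore mix lane with litter and mother, and the slopes below were fitted within lanes.

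*Neurod2* rose with stage in both generations. The gene lies at chr11:98186729-98190962 on the minus strand of mm9, with 2 exons, and encodes a NeuroD factor of neurons that have left the cell cycle, best known from the forebrain. In the 4 Cast × B6 embryos of the youngest litter (41 to 43 somites in the 3 with a number), its level was 0.666, 0.953, 1.07 and 1.46 RPM. The 4 embryos of the second Cast × B6 litter (46 to 48 somites in the 3 with a number) had 4.32, 4.91, 5.35 and 5.37 RPM. In the B6 × Cast crosses, the 5 embryos of 48 to 50 somites had 5.80, 7.43, 8.72, 9.93 and 16.1 RPM, and the 3 embryos of the oldest litter, of which 2 have somite numbers of 58 and 63, had 29.7, 30.05 and 32.1 RPM. None of the 4 litters overlapped with its neighbour. The older litter was 4.46-fold higher in Cast × B6 (log2 difference 2.16 ± 0.28 (SE); adjusted p = 0.000106, edgeR quasi-likelihood test) and 2.88-fold higher in B6 × Cast (1.53 ± 0.25; adjusted p = 0.0015). The Cast × B6 litters differ in sequencing run, so run and stage cannot be told apart there, whereas the B6 × Cast litters shared their runs. In either cross each stage was a single litter, so stage and litter cannot be told apart. *Neurod2* was the only member called higher in the older litters, where 16.9% and 7.54% of 13122 genes were.

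**Figure D1:**
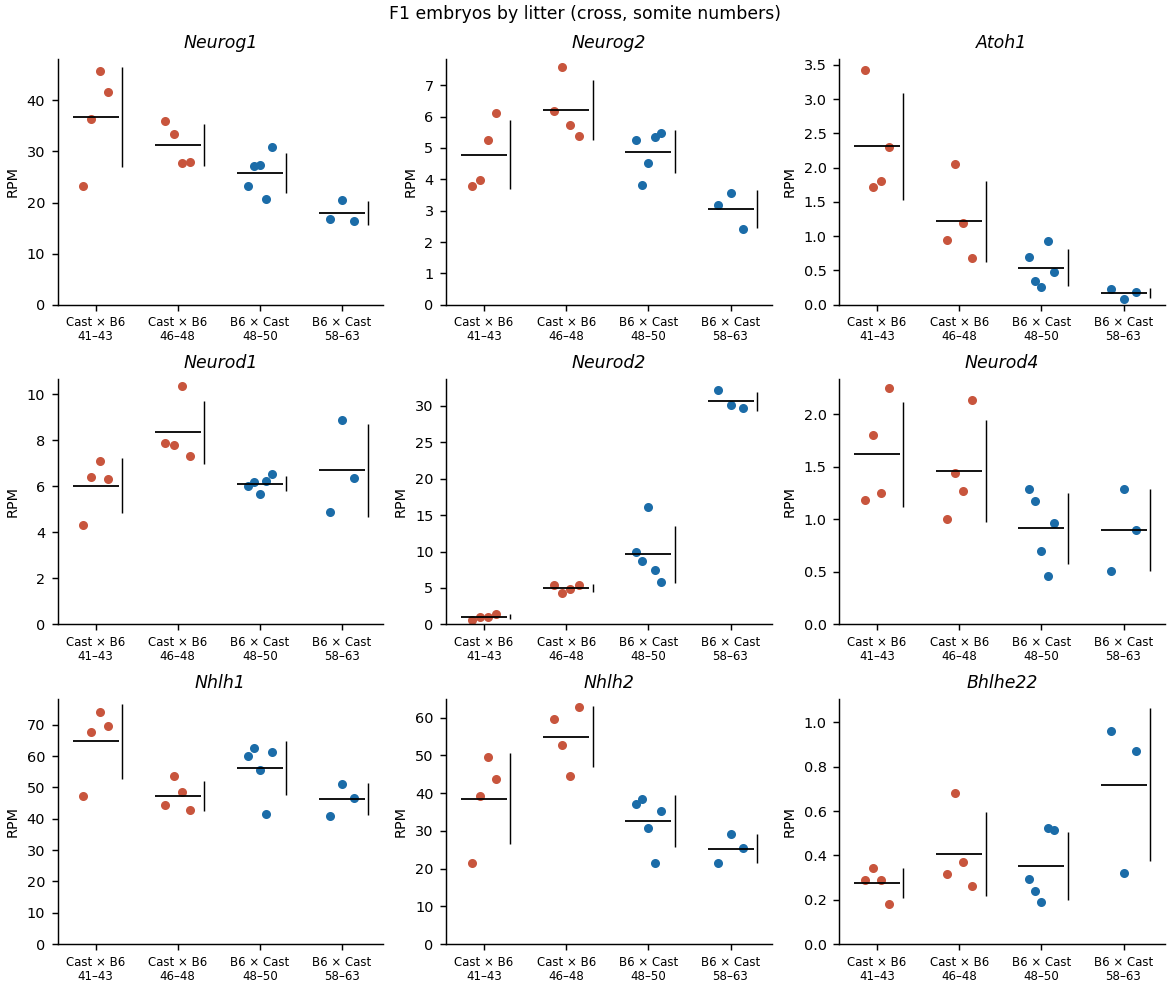
Levels of the 9 members (RPM, linear axes from 0) in each F1 embryo, by litter from the youngest to the oldest with the somite numbers given. Horizontal lines are litter means and vertical lines their SD (n = 4, 4, 5 and 3 embryos). *Neurod2* climbs from 0.666 to 32.1 RPM, and *Atoh1* falls from 3.42 to 0.0879 RPM.

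In N2 embryos, *Neurod2* had a median of 2.71 RPM (lowest 0, highest 6.32) at 42 to 45 somites (n = 21), 3.78 RPM (0 to 9.92) at 46 to 47 (n = 34) and 6.09 RPM (1.03 to 14.0) at 48 to 49 (n = 24). The median was 9.47 RPM (2.37 to 20.5) at 50 to 51 somites (n = 40) and 12.0 RPM (3.42 to 20.4) at 52 to 57 (n = 28). Neighbouring bins overlapped, but the medians rose at each step. Within lanes, the level changed by 0.23 ± 0.03 (SE, log2 per somite; adjusted p = 2.2e-11, edgeR quasi-likelihood test), a 2.25-fold rise over 5 somites. Across the 147 embryos Spearman's rho between level and somite number was 0.722 and Pearson's r 0.690. Both had a permutation p of 1e-05, which no set of 100000 resamples can go under. Leaving out the 2 embryos of most extreme somite number gave r = 0.678, and with lane removed from the ranks rho was 0.614 (8.5% of genes were then called with a positive rho and 3% with a negative one). It was the 1 member of 6 called by rank, where 14.1% of 10007 genes had a positive rho that was called and 7.97% a negative one. With lower minimums *Neurod4* (rho -0.272; adjusted p = 0.0084) and *Atoh1* (-0.263; adjusted p = 0.016) were called too. These values run across lanes, and the share of all genes called at these minimums is not reported here. Among embryos of B6 mothers, *Neurog1* (-0.266; adjusted p = 0.030) and *Nhlh2* (-0.300; adjusted p = 0.014) were called, where 5161 of 10007 genes were called in either direction. On flowcell 2, *Nhlh2* was called (-0.311; adjusted p = 0.023), where 3920 genes were called in either direction. Both subsets mix lanes of the 2 sets. With lane removed, *Neurog1* (adjusted p = 0.067) and *Nhlh2* (0.73) were not called, and *Neurod4* and *Atoh1*, under the minimum there, were not tested. Of the 14 lanes, 13 gave a positive rho, from 0.230 in lane J to 0.945 in lane H, and lane D gave -0.374. The slope was called under each of its alternatives, from 0.19 to 0.26.

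**Figure D2:**
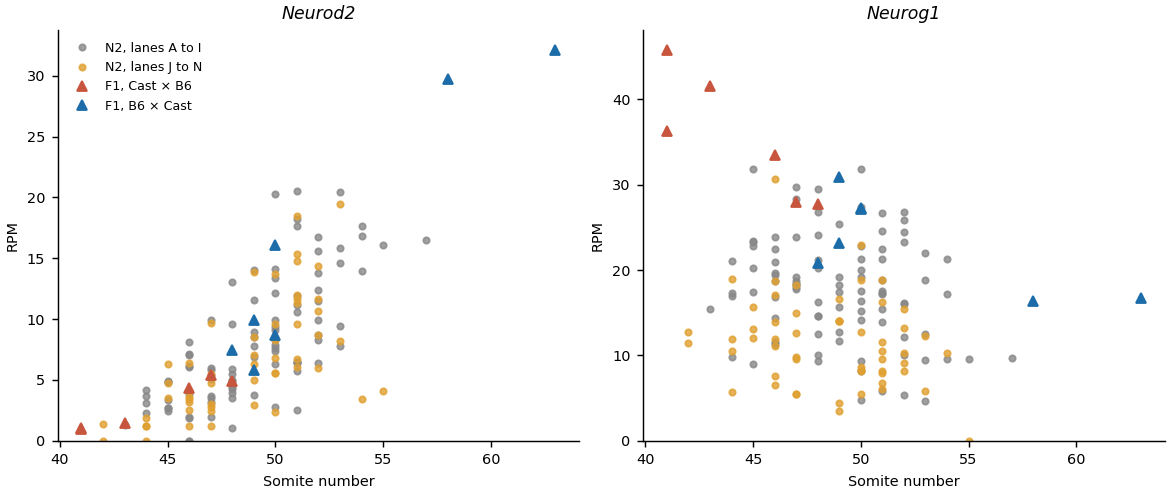
RPM of *Neurod2* (left) and *Neurog1* (right) against somite number. Circles are N2 embryos, grey for lanes A to I and yellow for lanes J to N, and triangles are F1 embryos. *Neurod2* rises along 1 band in both generations, whereas *Neurog1* of N2 embryos scatters from 0 to 31.9 RPM with a shallow decline.

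The genes most like *Neurod2* over the 154 N2 embryos, by Pearson's r of log2(RPM + 1) after lane, were *Cryaa* (0.742), *Mia1* (0.701) and *Crybb1* (0.694). These encode 2 lens crystallins and a protein secreted by cartilage, and share the libraries and stages of the embryos with it. Lens genes moved with stage in the same embryos: 6 of 8 listed lens genes rose within lanes and 0 fell, where 5.09% of 13156 genes rose and 4.08% fell. The summed level of these 8 went from a median of 59.7 RPM (24.5 to 135) in the 21 embryos of 42 to 45 somites to 207 RPM (92.3 to 412) in the 28 of 52 to 57. Muscle genes (7 of 7 tested) and liver genes (7 of 7) also rose, and their part in the level of *Neurod2* was not tested. The lens genes are counted in the same libraries.

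The proneural factors went down or were not called. *Neurog1*, a single-exon gene at chr13:56351866-56353524 (mm9, minus strand) that specifies neurons of cranial and spinal sensory ganglia, had 23.3, 36.3, 41.6 and 45.8 RPM in the youngest F1 litter and 27.7, 27.96, 33.5 and 35.9 RPM in the second Cast × B6 litter. In B6 × Cast it had 20.8, 23.1, 27.1, 27.3 and 30.9 RPM at 48 to 50 somites and 16.4, 16.7 and 20.6 RPM in the oldest litter. The B6 × Cast litters did not overlap, and the fall there was called (log2 -0.69 ± 0.18; adjusted p = 0.018, edgeR). Embryos being numbered within each cross, it was lost without B6 × Cast embryo 1 (adjusted p = 0.078) or 3 (0.096) and without TMM scaling, the correction for RNA composition (-0.53; 0.065). The Cast × B6 litters overlapped (-0.34 ± 0.17; adjusted p = 0.14). In N2 embryos the median went from 15.7 RPM (5.67 to 31.8) at 42 to 45 somites to 12.2 RPM (0 to 26.8) at 52 to 57. The slope within lanes was -0.06 ± 0.02 (adjusted p = 0.035) and rho was negative in 12 of 14 lanes. This call was lost in the fits without TMM scaling (adjusted p = 0.091), with litter as a random block (0.18), without a lane term (0.24), for either mother alone and for either set of lanes.

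*Atoh1* (chr6:64679140-64681227, plus strand, mm9, 1 exon), the factor of the rhombic lip, dorsal interneurons and hair cells, was low throughout. It had 1.72, 1.80, 2.30 and 3.42 RPM in the youngest F1 litter, 0.678, 0.944, 1.19 and 2.05 RPM in the second, 0.255, 0.345, 0.481, 0.699 and 0.929 RPM in the third and 0.0879, 0.187 and 0.224 RPM in the oldest. The oldest litter was below every other embryo, with 3 to 7 reads each. The falls were called in both crosses, at log2 -1.83 ± 0.52 (adjusted p = 0.027) in B6 × Cast and -1.04 ± 0.35 (adjusted p = 0.034) in Cast × B6, although the first lost its call without B6 × Cast embryo 2, 3 or 7 (adjusted p up to 0.12) and the second without Cast × B6 embryo 5, 7 or 8 (up to 0.10) and without TMM (-0.89; 0.067). In N2 embryos its mean was under the minimum of 1 RPM. With no minimum the slope was -0.20 ± 0.06 (adjusted p = 0.032), where 2.64% of 18658 genes were called lower and 3.64% higher, and rho was negative in 12 of 14 lanes.

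*Neurog2* (chr3:127336054-127338549, plus strand, mm9), which acts in spinal cord, epibranchial ganglia and cortex, had 3.79 to 6.12 RPM in the youngest F1 litter and 5.37 to 7.58 RPM in the second Cast × B6 litter, a difference that was not called (0.27 ± 0.17; adjusted p = 0.26). In B6 × Cast it had 3.83, 4.52, 5.26, 5.34 and 5.48 RPM at 48 to 50 somites and 2.40, 3.17 and 3.58 RPM in the oldest litter, without overlap, and the fall was called (-0.84 ± 0.19; adjusted p = 0.0083), but not without B6 × Cast embryo 3 (-0.69; 0.058). The difference between these changes was itself called (-1.11 ± 0.25; adjusted p = 0.0097; 20.1% of genes were called, 11.2% in this direction and 8.93% in the other), in a contrast added after the data were seen. The litters of the crosses cover different stages, and the older Cast × B6 litter also differs in sequencing run, so cross, stage and run cannot be told apart. The N2 slope was -0.05 ± 0.03 (adjusted p = 0.32). The likest genes of *Neurog1* were *Zkscan17*, *BC019943* and *Mapkapk5* (r of 0.539 to 0.597), and those of *Neurog2* were *Cpsf6*, *Pdgfra* and *Dnaja2* (0.579 to 0.649).

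**Figure D3:**
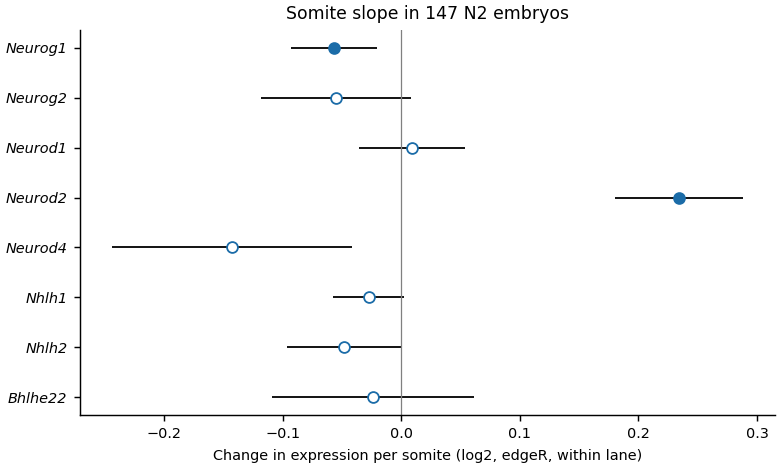
Slope of expression on somite number within lanes (log2 per somite, edgeR, 147 N2 embryos) for the 8 members with a mean of at least 1 RPM. Bars are 95% intervals from the SE, filled points passed an adjusted p of 0.05 over 13156 genes. *Neurod2* lies at 0.23 and the other slopes between -0.14 and 0.01.

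Of the 8 members tested for a slope within lanes, 1 rose and 1 fell, where 5.09% of 13156 genes rose and 4.08% fell (669 and 537 genes). The median slope was -0.04 over the members and -0.0047 over all genes. *Neurod4* (chr10:129705209-129717296, minus strand, mm9), which acts with the neurogenins as neurons form, had a slope of -0.14 ± 0.05 (adjusted p = 0.064) that was called without a lane term (-0.18; 0.0034) and among embryos of F1 mothers (-0.35; 0.027). Its median went from 1.11 RPM (0 to 4.74) at 42 to 45 somites to 0.165 RPM (0 to 3.38) at 52 to 57, where 14 of 28 embryos had 0 reads. In F1 litters it was between 0.464 and 2.25 RPM and not called.

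*Neurod1* (chr2:79292678-79296908, minus strand, mm9), a NeuroD factor of sensory ganglia, retina and endocrine pancreas, was not called between litters or along somite number. It had 4.31 to 10.4 RPM in the F1 embryos and a slope of 0.01 ± 0.02 (adjusted p = 0.88), which was negative without libraries under 1000000 reads and in lanes A to I. Its likest genes were *Arid4b* (0.674), *Nefl* (0.658), a neurofilament gene, and *Nptn* (0.647).

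*Nhlh1* (chr1:173982423-173987704, minus strand, mm9), a marker of newly born neurons, had 47.2, 67.7, 69.6 and 74.1 RPM in the youngest F1 litter and 42.9, 44.5, 48.5 and 53.6 RPM in the second Cast × B6 litter. In B6 × Cast it had 41.4, 55.6, 60.01, 61.2 and 62.5 RPM at 48 to 50 somites and 41.0, 46.6 and 51.1 RPM in the oldest litter. Litters of both crosses overlapped through 1 low embryo of the younger litter, and both falls were called (-0.56 ± 0.13; adjusted p = 0.0041 in Cast × B6 and -0.44 ± 0.13; adjusted p = 0.034 in B6 × Cast). The latter was lost without any 1 of 9 of the 16 embryos (B6 × Cast embryos 1 to 6 and 8, Cast × B6 embryos 4 and 6; adjusted p up to 0.18) and without TMM (-0.28; 0.21). In N2 embryos the median was 47.2 RPM (18.3 to 63.8) at 42 to 45 somites and 39.6 RPM (4.08 to 56.8) at 52 to 57, and the slope was -0.03 ± 0.02 (adjusted p = 0.29). Its likest genes were *S1pr2*, *Lrrc14* and *Fiz1* (r of 0.645 to 0.660).

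*Nhlh2*, a related factor of newly formed neurons that is later active in the hypothalamus, was not called between the litters of either cross. Its gene has 3 exons at chr3:101814068-101819415 on the plus strand of mm9. Its 2 changes were of opposite sign, 0.42 ± 0.21 (adjusted p = 0.14) in Cast × B6 and -0.52 ± 0.22 (adjusted p = 0.12) in B6 × Cast, and differed (-0.94 ± 0.30; adjusted p = 0.040), with the same limit as for *Neurog2*. Its N2 slope was -0.05 ± 0.02 (adjusted p = 0.24), from a median of 33.1 RPM (12.3 to 265) at 42 to 45 somites to 24.4 RPM (6.80 to 140) at 52 to 57. Within lanes A to I the median went from 20.05 to 20.9 RPM and within lanes J to N from 75.2 to 70.5 RPM, and the lane sets were mixed in different shares in these bins. Its likest genes were *Cks1b*, *Ncl* and *Phf17* (r of 0.538 to 0.574). *Bhlhe22* (chr3:17954325-17957509, plus strand, mm9, 1 exon) was under 1 RPM in all 16 F1 embryos (0.183 to 0.959), with 0.323, 0.872 and 0.959 RPM in the oldest litter, and was tested there only with no minimum (0.85 ± 0.40; adjusted p = 0.19 in B6 × Cast). Its N2 slope was -0.02 ± 0.04 (adjusted p = 0.82). In all, 4 members fell and 1 rose between the B6 × Cast litters, where 8.42% of genes fell, and 2 fell and 1 rose between the Cast × B6 litters, where 15.5% fell. Without TMM scaling all genes shifted by 0.16 and 0.11 on the log2 scale in these contrasts. The calls then numbered 1969 higher and 471 lower in place of 989 and 1105 in B6 × Cast, and 3090 and 1087 in place of 2219 and 2031 in Cast × B6, and the slopes within lanes 857 (6.51%) and 259 (1.97%) in place of 669 and 537.

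Crosses were compared where their stages were close, in the B6 × Cast litter of 48 to 50 somites and the Cast × B6 litter of 46 to 48. *Neurod2* was 1.98-fold higher in B6 × Cast (log2 0.98 ± 0.25; adjusted p = 0.018; 6.52% of genes were called higher), and its stages there were also older. *Nhlh2* was lower, with 21.4, 30.8, 35.3, 37.1 and 38.5 RPM against 44.6, 52.8, 59.6 and 62.7 RPM in Cast × B6 (-0.71 ± 0.20; adjusted p = 0.029; 7.58% lower). The groups did not overlap for either gene. The *Nhlh2* call was lost without B6 × Cast embryo 6 or 7 or Cast × B6 embryo 5 or 8 (adjusted p up to 0.079). Without TMM the calls over all genes numbered 530 higher and 1174 lower in place of 855 and 994. The other members were not called. Their log2 differences were -1.12 ± 0.38 for *Atoh1* (adjusted p = 0.061, called by DESeq2 at 0.048 and without B6 × Cast embryo 7 or Cast × B6 embryo 8), -0.59 ± 0.32 for *Neurod4*, -0.39 ± 0.17 for *Neurod1*, -0.28 ± 0.17 for *Neurog2*, -0.22 ± 0.16 for *Neurog1* and 0.30 ± 0.12 for *Nhlh1* (called without B6 × Cast embryo 7, adjusted p = 0.042). *Bhlhe22*, tested with no minimum, differed by -0.14 ± 0.42. With 1 litter per cross and different sequencing runs, cross, litter and run cannot be told apart.

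The genes around these factors were read from lists chosen by function, in the same fit within lanes, where 5.09% of 13156 genes rose and 4.08% fell. Of the neural progenitor genes, 3 of 12 fell and 0 rose: *Nes*, an intermediate filament gene of progenitors (-0.08 ± 0.01; adjusted p = 1.3e-09), *Hmga2* (-0.10 ± 0.02; 0.0020) and *Sox2* (-0.08 ± 0.02; 0.012). *Nes* also fell in both F1 contrasts (-0.69 and -0.84), and the other two were not called there. Of the Hes and Hey repressors, 2 of 6 fell, *Hes3* (-0.14 ± 0.03; 1.0e-04) and *Heyl* (-0.04 ± 0.01; 0.015). Of the other neurogenic bHLH factors, 2 of 4 tested fell, *Olig2* of motor neuron and oligodendrocyte progenitors (-0.09 ± 0.02; 2.9e-04) and *Olig3* of dorsal progenitors (-0.08 ± 0.02; 0.011). Of the Notch pathway, the ligand gene *Dll3* fell (-0.07 ± 0.02; 0.016) and the other 17 tested were not called, nor were the 3 E proteins and the 4 Id inhibitors.

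Most listed genes of later neurons were not called. Of the differentiated neuron genes, 3 of 19 rose with somite number and 0 fell: *Mapt*, which encodes tau (0.09 ± 0.01; adjusted p = 9.1e-08), *Stmn3* (0.06 ± 0.01; 0.0011) and *Scg3* (0.08 ± 0.02; 0.0026). Of the sensory ganglion genes, 4 of 12 rose and 0 fell, among them the peripheral neuron filament gene *Prph* (0.12 ± 0.01; 7.5e-11), *Avil* (0.16 ± 0.03; 1.3e-04) and *Runx3* (0.15 ± 0.03; 1.7e-04). Between the F1 litters, 4 differentiated neuron genes of 17 tested rose and 1 fell in B6 × Cast and 3 rose and 1 fell in Cast × B6. Of the 12 sensory ganglion genes 4 rose and 0 fell in B6 × Cast and 4 rose and 1 fell in Cast × B6. Of all 13122 genes, 7.54% rose and 8.42% fell in B6 × Cast, and 16.9% rose and 15.5% fell in Cast × B6. Of the 20 tested targets of proneural factors, *Cbfa2t3* rose (0.05 ± 0.01; 9.1e-04), while *Barhl1* (-0.07 ± 0.02; 0.0040) and *Gadd45g* (-0.04 ± 0.02; 0.047) fell. In lanes J to N alone, 103 genes were called in all, and of the genes named in these lists *Nes*, *Prph*, *Avil* and *Runx3* were among them. Without TMM, *Heyl*, *Dll3*, *Sox2* and *Gadd45g* lost their calls, and with litter as a random block *Olig3*, *Barhl1* and *Gadd45g* did. Without a lane term, *Nes* (adjusted p = 0.057), *Sox2*, *Heyl*, *Dll3*, *Barhl1*, *Gadd45g*, *Stmn3* and *Scg3* lost theirs. *Olig3*, *Heyl*, *Dll3*, *Sox2*, *Barhl1* and *Gadd45g* were called with neither kind of mother alone, and *Olig3* and *Dll3* were not called in lanes A to I. *Gadd45g* was also lost with either other minimum on levels and without libraries under 1000000 reads. With F1 mothers alone, *Nes*, *Mapt*, *Prph* and *Cbfa2t3* were called among these genes.

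Erythroid genes, which fill a large part of these libraries, went both ways (3 rose, among them *Klf1* at 0.08 ± 0.02, and 2 fell, among them the embryonic globin gene *Hbb-bh1* at -0.13 ± 0.03). Named in the same way, *Slc4a1* (0.09 ± 0.02) rose, as did the liver genes *Ttr*, *Alb*, *Apoa2* and *Ahsg* (0.10 to 0.22), the muscle genes *Tnnt1*, *Myod1*, *Myh3* and *Myog* (0.08 to 0.10) and the lens genes *Cryga*, *Cryaa*, *Cryba1* and *Crybb1* (0.26 to 0.68). Of the cartilage and mesenchyme list, *Mia1* (0.29) and *Acan* (0.19) rose and 5 of 7 tested were not called. The 1 tested pancreas gene was not called.

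Lane medians of 4 members did not overlap between the lane sets, and how many of all genes separate in this way was not counted. By the 4-fold measure above, 21.8% of 10007 genes were higher in lanes J to N. The ratio of J to N over A to I was 5.32 for *Neurod1*, 8.95 for *Neurog2* and 4.13 for *Nhlh2*. For *Bhlhe22* and *Neurod4* it was 20.7 and 17.7, from low A to I values of 0.344 and 0.148 RPM. It was 0.669 to 0.779 for *Neurod2*, *Neurog1* and *Nhlh1*. Lane medians of *Neurog2* were 1.18 to 2.16 RPM in lanes A to I and 12.2 to 16.1 RPM in lanes J to N. Those of *Neurod1* were 3.30 to 11.1 RPM and 27.5 to 40.1 RPM, those of *Bhlhe22* 0 to 0.758 RPM and 3.89 to 10.5 RPM, and those of *Nhlh2* 12.7 to 33.05 RPM and 64.96 to 96.6 RPM. No lane of one set reached a lane of the other in these genes. For *Neurod2* the lane medians were 3.96 to 12.9 RPM and 2.17 to 8.27 RPM, and those of *Neurog1*, *Nhlh1*, *Neurod4* and *Atoh1* also overlapped. *Neurod4* overlapped through lane J, with a median of 0 RPM. Its medians in lanes K to N were 1.73 to 3.65 RPM, against at most 0.741 RPM in lanes A to I. The F1 embryos had *Neurog2* at 2.40 to 7.58 RPM and *Bhlhe22* at 0.183 to 0.959 RPM.

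**Figure D4:**
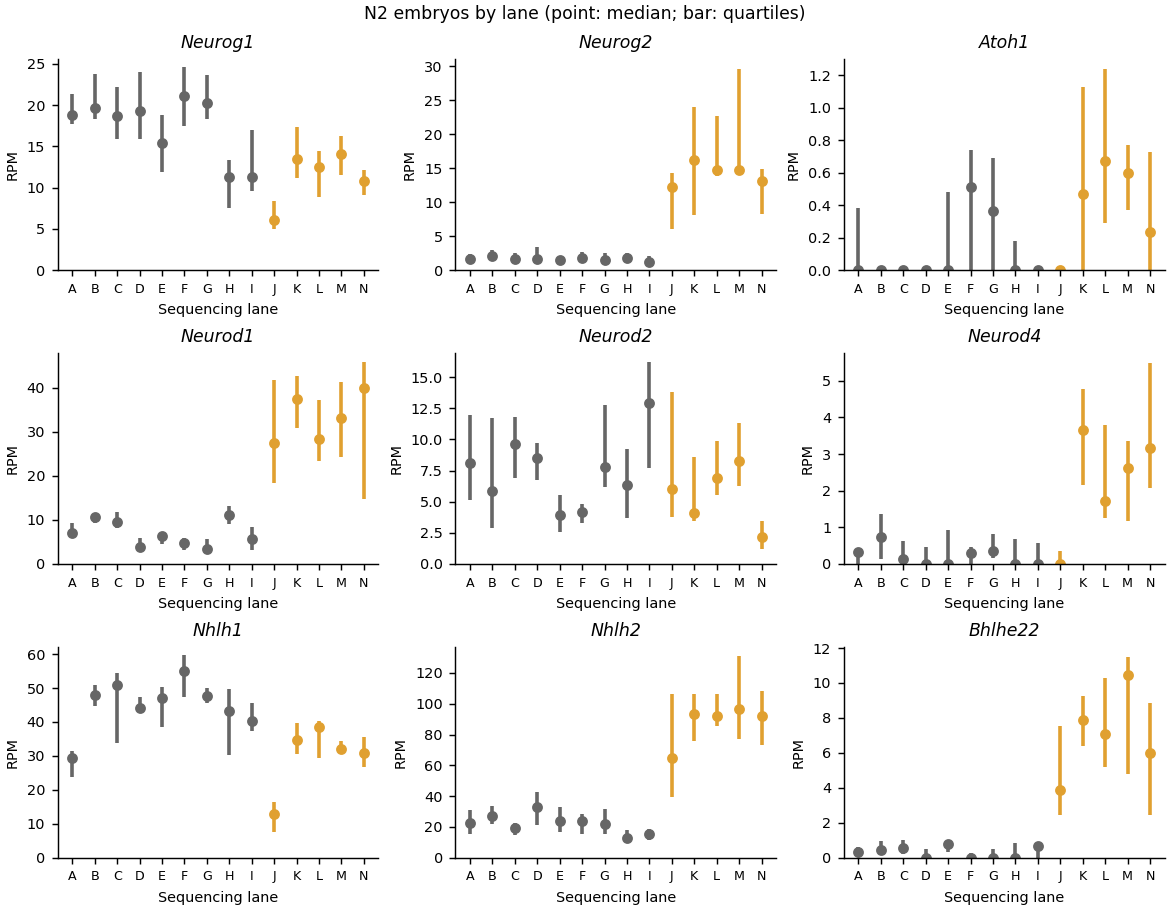
RPM of the 9 members in N2 embryos by sequencing lane (9 to 12 embryos per lane). Points are lane medians and bars the quartiles, grey for lanes A to I and yellow for lanes J to N. The sets separate for *Neurog2*, *Neurod1*, *Nhlh2* and *Bhlhe22* and overlap for the other 5.

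Lanes A to G were run on one flowcell and H to N on another, so the sets do not follow the flowcell. A litter of a B6 mother was sequenced in both lane H and lane K. Its *Neurog2* was at 0, 0, 0.910 and 1.67 RPM in lane H and at 17.0 and 21.2 RPM in lane K. Lane J was the shallowest (245220 to 1451109 reads) and the other 4 of its set held 473072 to 5134607. Other lists moved with the same lanes. The summed level of the neural progenitor genes had a median of 627 RPM (399 to 983) in lanes A to I and 1625 RPM (565 to 2953) in lanes J to N, and that of the E proteins 465 RPM (190 to 812) and 663 RPM (264 to 1087), while that of the erythroid genes was lower (85885 and 57739 RPM). What the lanes differ in was not tested. Correlations between members carry this split: over all 154 embryos *Neurog2* and *Bhlhe22* had r = 0.851 and *Neurog2* and *Nhlh2* 0.814, and after lane these were 0.371 and 0.342. The highest value after lane was 0.445, for *Neurod1* and *Bhlhe22*, and *Neurod2* stayed between -0.163 and 0.0638 with the other 8.

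The genotype of the mother was compared over all N2 embryos with the Mann-Whitney test, in which 5.03% of 9733 genes were called, 4.28% higher with F1 mothers and 0.75% with B6 mothers (Bonferroni-adjusted p under 0.01). Of the 6 members tested 0 were called, while 3 had an unadjusted p under 0.05, as had 3917 of all 9733 genes. Those were *Nhlh1* (log2 F1 over B6 mothers 0.25, p = 0.0038), *Neurod1* (-0.38, p = 0.011) and *Neurog1* (0.24, p = 0.012), by a large-sample Mann-Whitney test on 89 and 65 embryos. The log2 differences of the others were 0.11 for *Neurod2*, 0.21 for *Neurog2* and -0.0483 for *Nhlh2*, and with a minimum of 1 RPM -0.29 for *Neurod4* and 0.0304 for *Bhlhe22*. In edgeR with flowcell and somite number, *Neurog2* (0.81; adjusted p = 1.9e-04) and *Nhlh2* (0.44; adjusted p = 0.013) were called higher with F1 mothers. In that fit 6153 genes were called in all, in either direction. It had no lane term, and the lane medians of both genes separated the lane sets. Within lanes A to I and within lanes J to N, *Nhlh2* differed by 0.22 and 0.15 and was not called by the Mann-Whitney test. Over litter means 0 genes were called by the same Mann-Whitney test, with 1279 at an unadjusted p under 0.05. With 17 and 12 litters that test could not pass the Bonferroni threshold for any gene, so the count was fixed at 0. Of 14 lanes 13 held 1 kind of mother, and mother and lane cannot be told apart. The somite slope did not differ between mothers for any of 8 members (edgeR interaction; 1 gene of 13156, or 0.0076%, was called), and 1 member, *Neurod4*, had an unadjusted p under 0.05 (-0.22 ± 0.11; adjusted p = 0.88).

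Alleles were told apart by the reads that cover SNPs, given as votes for B6 or Cast, and the B6 allele fraction (BAF) is the B6 share of votes. Members differed widely in coverage. *Nhlh1* had 18227 votes over the F1 embryos, *Nhlh2* 2022 votes and *Neurog2* 848, whereas *Neurog1* had 264, *Neurod2* 189, *Atoh1* 166, *Neurod4* 29 and *Bhlhe22* 13. *Neurod1* had 0 votes from 3000 F1 reads and could not be tested. Votes and the intervals given here cover counting error only.

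*Nhlh2* was expressed mostly from the Cast allele. Its BAF per F1 embryo was 0.214 ± 0.037 (SD, n = 8) in B6 × Cast and 0.196 ± 0.031 (n = 8) in Cast × B6, from 0.149 to 0.268, with all 16 embryos below 0.5. Pooled, 404 B6 and 1617.5 Cast votes gave 0.1999 (95% Wilson interval 0.183 to 0.218). In the 79 heterozygous N2 embryos, 231.5 B6 and 431 Cast votes gave 0.349 (0.315 to 0.388), and the 75 homozygous N2 embryos, which carry no Cast allele, had 303 B6 and 0 Cast votes. By lane set the heterozygous value was 0.254 (0.196 to 0.326) in A to I and 0.383 (0.341 to 0.427) in J to N. Over embryos with at least 5 votes, the mean was 0.348 (SD 0.220, from 0 to 1) in 36 N2 embryos. That was higher than 0.205 (SD 0.034) in the 16 F1 embryos (permutation test, two-sided, p = 0.0044). It was the 1 member of 4 tested that was called (paired test of the votes of each allele over 95 embryos, Bonferroni-adjusted p = 9.0e-06 over 9084 genes), where the Cast allele was called higher in 9.17% of genes and the B6 allele in 9.7%. F1 embryos alone (adjusted p = 0.023) and N2 embryos alone (0.031) missed the threshold of 0.01. Votes were 12.0% of *Nhlh2* reads in F1 and 5.96% in heterozygous N2 embryos. The authors cut the HiSeq reads of F1 embryos to the length of the GAIIx reads, but not those of N2 embryos. The part of read length in the difference between generations was not tested.

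The level of *Nhlh2* moved with the genotype of the embryo at the gene itself. In lanes A to I, the 53 homozygous embryos had a median of 15.3 RPM (6.29 to 36.2) and the 45 heterozygous ones 30.3 RPM (14.8 to 61.2). In lanes J to N, the 22 homozygous embryos had 75.5 RPM (25.8 to 104) and the 34 heterozygous ones 104 RPM (38.9 to 388). The ranges overlapped, but the heterozygous mean was the higher one in 14 of 14 lanes, by 1.31-fold in lane B to 3.22-fold in lane J. After lane, somite number and 15 principal components were removed, heterozygous embryos were higher by 0.69 on the log2(RPM + 1) scale (rank-sum test, adjusted p = 1.5e-18 over 9733 genes, of which 14.4% were called in this direction). It was the 1 member of 6 called, at 0.63 in lanes A to I alone (adjusted p = 4.4e-11) and 0.45 in lanes J to N alone (adjusted p = 1.5e-04).

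**Figure D5:**
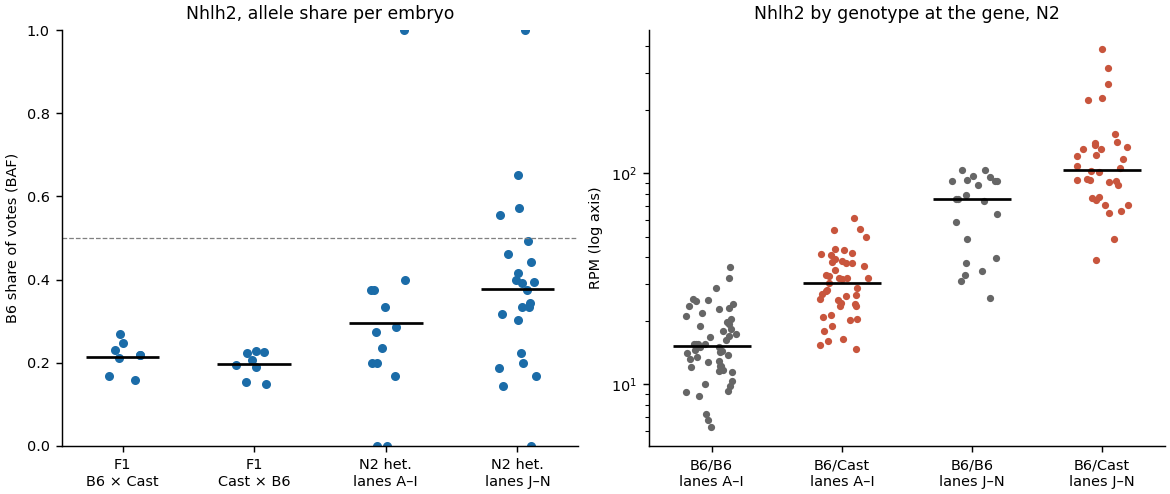
Left, BAF of *Nhlh2* per embryo (0 to 1; lines are means; dashed line 0.5) in F1 embryos of both crosses and in heterozygous N2 embryos with at least 5 votes, split by lane set. Right, RPM of *Nhlh2* (log axis; lines are medians) in N2 embryos by genotype at the gene and lane set. F1 embryos lie between 0.149 and 0.268, and heterozygous embryos have the higher median in both lane sets.

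The other members had no call for allele or own genotype. *Neurod2* had a pooled BAF of 0.429 (0.360 to 0.4999) in F1 and 0.420 (0.346 to 0.497) in heterozygous N2 embryos. By lane set the N2 value was 0.557 (0.441 to 0.668) in A to I and 0.315 (0.229 to 0.416) in J to N. *Neurog2* had a pooled BAF of 0.472 (0.438 to 0.505) in F1 and 0.536 (0.489 to 0.581) in heterozygous N2 embryos. For *Nhlh1*, the best covered member, it was 0.505 (0.497 to 0.512) and 0.546 (0.531 to 0.562), and the difference in level between its heterozygous and homozygous embryos was -0.08 (adjusted p = 0.15). *Atoh1* had 0.578 (0.502 to 0.651) in F1 embryos. *Neurog1* had 125 B6 and 139 Cast votes in F1 embryos (0.473, 0.414 to 0.534) but 24 B6 and 0 Cast votes in 17 heterozygous N2 embryos, which allows a Cast share of up to 12.5% (3 votes of 24; the 95% Wilson interval of the BAF starts at 0.862). The pools differed by Fisher's exact test on votes (p = 5.9e-08). Whether the genotype calls or the SNPs used differ between the generations was not tested. Votes were 2.04% of its reads in F1, 0.924% in heterozygous and 2.92% in homozygous N2 embryos. Votes of 1 embryo are not independent, so this p compares the pools of votes. By the same test the pools of *Nhlh1* (p = 1.7e-06) and *Neurog2* (p = 0.031) also differed between generations, while their means over embryos with at least 5 votes did not pass a permutation test (p = 0.14 and 0.71; 5 members compared, not adjusted). Own-genotype differences of *Neurod1*, *Neurod2*, *Neurog1* and *Neurog2* were between -0.04 and 0.11 with adjusted p from 0.38 to 0.97.

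Reciprocal crosses tell the parent of origin. The BAF per F1 embryo did not differ between B6 × Cast and Cast × B6 beyond its spread for any of 6 members (two-sided exact permutation test, p from 0.17 to 0.96, not adjusted), and 0 of 6 were called in the binomial test, which asks that the higher allele change with the cross and in which 0.405% of 11598 genes were called. *Nhlh2* alone among them had an unadjusted p under 0.05 in both crosses, as had 4712 of all 11598 genes, with the Cast allele higher in each. *Nhlh1* had 0.494 ± 0.020 (SD, n = 8) and 0.519 ± 0.045 (n = 8). In heterozygous N2 embryos, however, its BAF was 0.590 ± 0.148 (n = 31) with B6 mothers and 0.515 ± 0.080 (n = 32) with F1 mothers (permutation test, p = 0.013, 4 such tests, not adjusted), the opposite direction to the F1 embryos. By lane set its pooled BAF was 0.556 in A to I and 0.503 in J to N. The BAF of *Nhlh1*, the 1 member with enough votes, did not follow somite number (rho 0.172, n = 54, adjusted p = 0.79 over 3342 genes, of which 0.299% were called).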

How the data were processed

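3SEQ reads of single E11.5 embryos had been poly(A)-trimmed and aligned by the authors with Bowtie2 (version not given in the sources used here) to mm9 with RefSeq transcripts and to a Cast version of it, and reads whose second-best alignment was within 3 edits were dropped. The deposited expression tables hold raw counts of reads on the exons of each gene, with no normalisation. The allele tables deposited by the authors hold estimated counts (votes), in which each read is shared over the SNPs it covers, so that a gene without a covered SNP has none. Genotypes per gene were the authors' calls. Counts were divided by the total on genes to give RPM, and totals were 15703888 to 38234229 in F1 and 245220 to 5370322 in N2 embryos. All table columns were matched to labelled embryos or left unassigned (8), and 6 further embryos without a genotype were left out. Sex was not used.

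The slope on somite number (lane as a factor) and the F1 litter contrasts (16 embryos in 1 fit) used the edgeR 4.0.16 quasi-likelihood test with TMM and genes of at least 1 RPM on average, at a Benjamini-Hochberg adjusted p of 0.05. Genes of at least 5 RPM entered the Spearman correlation (0.05), the Mann-Whitney test by mother (Bonferroni, 0.01) and the rank-sum test by own genotype (0.01) on residuals of log2(RPM + 1) after lane, somite number and 15 principal components. The allele test was the paired t-test with a Bonferroni threshold of 0.01, a pooled BAF outside 0.45 to 0.55 and 20 votes per cross. BAF against somite number used an adjusted p of 0.1. DESeq2 1.42.0, limma 3.58.1, other scalings, filters, subsets of mothers, flowcells and lanes, litter means and leaving out each F1 embryo were the alternatives. R 4.3.3, Python 3.11.15, numpy 2.4.6, scipy 1.17.1, pandas 2.3.3 and matplotlib 3.10.9 were used, and the scripts were tested on simulated data.

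The rule named all 9 members in each comparison where they could be tested, and from each other list up to 4 genes with the smallest p among those with a called slope. The likest genes are the 3 with the highest r for each member of at least 5 RPM. The members and lists were chosen with earlier results of these data known. The lists name genes by function, so their counts are descriptions. Values of some listed genes are not reported here.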

Additional observations from a re-analysis of the deposited data

Results flagged for a closer look

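A sample far from the others of its cross was seen in 2 of 55 groups of values tested, where chance gives about 1 in 20. *Neurod1* was at 8.85 RPM in B6 × Cast embryo 2, of the oldest litter, against 4.86 to 6.54 RPM in the other 7. *Bhlhe22* was at 0.682 RPM in Cast × B6 embryo 6 against 0.183 to 0.369 RPM in the other 7.

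Allele shares differed between the generations for *Nhlh2* over embryos and for *Neurog1*, which had too few votes per embryo, over pooled votes. The pooled votes of *Nhlh1* and *Neurog2* also differed by Fisher's exact test (p = 1.7e-06 and 0.031), but not their embryo means (permutation p = 0.14 and 0.71). The pooled BAF of *Neurog1* was 1 in heterozygous N2 embryos and 0.473 in F1 embryos, from 24 and 264 votes, and whether genotype calls or SNPs differ between the generations was not tested. That of *Nhlh2* was 0.350 from 663 votes and 0.1998 from 2022 votes (votes rounded to whole numbers).

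The change from the younger to the older litter differed between the crosses, by -0.94 on the log2 scale for *Nhlh2* and -1.11 for *Neurog2*. The crosses were sampled at different stages, and the older Cast × B6 litter in another sequencing run.

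Of 8 N2 columns that the labels put in no group, the one with most reads held 1210811 reads on genes. Its levels were 5.78 RPM for *Neurod1*, 3.30 RPM for *Neurod2*, 30.6 RPM for *Neurog1*, 56.2 RPM for *Nhlh1* and 37.2 RPM for *Nhlh2*, each from more than 3 reads.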

How the results depend on the processing

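The rise of *Neurod2* was called in all alternatives of the slope, the correlation and the 3 F1 contrasts that were run, and the own-genotype difference of *Nhlh2* in all of its own. Each allele test on 1 generation alone lost the call of *Nhlh2* (adjusted p of 0.023 and 0.031). With an adjusted p of 0.05 in place of Bonferroni, *Neurod1*, *Neurog1* and *Nhlh1* were called by mother (0.038, 0.041 and 0.016). Under this setting 3073 of 9733 genes were called. Unless a value shows it, the cause of a change was not tested. No paired analysis was possible because the embryo numbers only name embryos. At the median N2 depth 5 RPM is 11.5 reads, which limits single embryos, and *Atoh1*, *Neurod4* and *Bhlhe22* most.

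Counts of genes called by slope were 2551 without a lane term, 602 with B6 mothers, 123 with F1 mothers and 103 in lanes J to N, in place of 1206. For the interaction of mother and slope they were 2 without TMM, 2 without libraries under 1000000 reads and 8 in lanes A to I, in place of 1. By mother they were 6153 (edgeR), 3073 (Benjamini-Hochberg), 0 (litter means, with too few litters to pass the threshold), 212 and 24 (flowcells 1 and 2), 1303 (lanes A to I) and 1 (lanes J to N), in place of 490. For the somite correlation they were 1151 with lane removed, 5161 with B6 mothers, 3920 on flowcell 2, 936 in lanes J to N, 704 and 273 with lane removed for B6 and F1 mothers, and 174 over litter means, in place of 2206. TMM-scaled CPM gave 1028 higher and 981 lower in place of 1408 and 798. The allele test gave 1105 in F1 alone and 2889 with Benjamini-Hochberg, in place of 1714. BAF against somite number gave 17 with 10 votes and 2 with lane removed, in place of 10. Own genotype gave 1778 with 0 components, 1091 on RPM with no covariates and 807 in lanes J to N, in place of 2733. Leaving out 1 F1 embryo gave 835 to 2618 in B6 × Cast, 3008 to 4740 in Cast × B6 and 938 to 2423 at near stage, in place of 2094, 4250 and 1849.

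Signs of members turned as follows, in values that were not called unless stated. The slope of *Neurod1* became -0.0275 without a lane term, -0.0088 without small libraries and -0.0126 in lanes A to I. The interaction became 0.0089 (no TMM) and 0.0275 (no small libraries) for *Bhlhe22*, and -0.0450 (no small libraries) and -0.0770 (lanes A to I) for *Nhlh2*. By mother, edgeR gave 0.0472 for *Neurod1*, -0.21 for *Neurod2*, -0.0504 for *Neurog1* and 0.44 for *Nhlh2* (called, adjusted p = 0.013). Litter means gave -0.20 for *Neurog2*, flowcell 1 -0.15 for *Neurog1* and -0.0639 for *Neurog2*, flowcell 2 0.43 for *Neurod1* and 0.72 for *Nhlh2*, and 46 to 52 somites -0.0066 for *Neurod2*. Lanes A to I gave -0.0490 for *Neurod2* and 0.22 for *Nhlh2*, and lanes J to N 0.15 for *Nhlh2*. In B6 × Cast litters *Neurod1* was 0.13 without TMM, 0.0081 at 5 RPM and -0.27 to 0.16 without 1 embryo, and *Neurod4* -0.54 to 0.0731 without 1 embryo. The somite rho of *Neurod1* was -0.132 with B6 mothers, -0.200 on flowcell 2, -0.0389 in lanes J to N, -0.103 over litter means and -0.0135 with embryos without genotype. That of *Neurog2* was 0.0696 with F1 mothers, 0.0331 in lanes J to N and 0.0354 with B6 mothers and lane removed, that of *Nhlh2* 0.0922 with F1 mothers and that of *Neurog1* 0.0229 on flowcell 1. BAF minus 0.5 of *Neurog2* was 0.0356 in N2 alone, and the rho of *Nhlh1* BAF -0.0824 with lane removed. Own-genotype differences became 0.0330 (0 components) and 0.258 (RPM) for *Neurog1*, -0.0402 (25 components), -0.0607 (lanes A to I) and -0.0196 (lanes J to N) for *Neurog2*, -0.934 (RPM) for *Neurod1* and -0.0043 (lanes J to N) for *Neurod2*. The BAF difference by mother in N2 embryos had the opposite sign to F1 for *Neurod2* (0.162), *Neurog2* (0.0650), *Nhlh1* (0.0757) and *Nhlh2* (-0.0053).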
